A study of Mus musculus with 6 samples.

Results

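The mRNA levels of 34 genes of protein folding and quality control in the endoplasmic reticulum (ER) were compared between B16F10luc2 mouse melanoma cells under cyclic stretch and cells of the same line kept static. The genes were a list of named ER folding factors, components of ER-associated degradation (ERAD) and branches of the unfolded protein response (UPR), matched to the table by Entrez Gene number and symbol. All 34 were present among the 14883 genes of the table and all 34 passed the filter on low counts, which kept 12377 genes. Stretched cells (3 libraries) had been grown on elastic-bottomed plates and given 15% equibiaxial elongation for 24 h, 15 times a minute, each stretch followed by a relaxation of the same length. Static cells (3 libraries) were grown in the same kind of plate without stretch. Every sample is this 1 line, and how long the static cells were kept is not given. The labels do not tell whether the replicates are independent cultures, and the p-values cover no more than the spread among the 6 libraries, part of which may be technical.

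The ER folds secreted and membrane proteins with chaperones, lectins that read N-glycans, and enzymes that form and rearrange disulfide bonds. Proteins that fail to fold are trimmed of mannose, passed through a membrane complex around the ubiquitin ligase Hrd1 and destroyed by proteasomes, the route called ERAD. The load of unfolded protein is read by the sensors IRE1, PERK and ATF6, whose signalling is the UPR. ATF6 and the spliced form of XBP1, which IRE1 produces, raise the transcription of chaperone and ERAD genes, while PERK phosphorylates the translation factor eIF2alpha and so favours translation of ATF4. Gene counts show mRNA levels. They do not show XBP1 splicing, ATF6 cleavage or phosphorylation of the sensors.

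Library totals ran from 20494344 to 36351400 counts under stretch and from 19469286 to 30042222 in static culture. The 7 melanocyte lineage markers summed to 19863 to 20454 CPM (a gene's counts scaled to library size with the trimmed mean of M-values, TMM) in stretched libraries and to 22410 to 24791 CPM in static ones (3 of 7 lower, 1 higher). The 7 fibroblast markers summed to 23.2 to 25.2 CPM under stretch and 25.1 to 30.4 CPM in static cells (2 of the 4 tested lower, 1 higher). The 4 endothelial markers summed to at most 0.589 CPM under stretch and 0.387 CPM in static cells. Lum, Cdh5, Kdr, Tek and all 5 epithelial markers (Epcam, Krt5, Krt14, Krt8 and Krt18) were not among the genes of the table. The part of these differences in the results was not tested. All values are shares of a library, so a lower share of a cell's RNA and a lower amount of RNA per cell cannot be told apart.

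Most of the ER genes had lower mRNA levels in stretched cells. In edgeR's quasi-likelihood test with adjusted p under 0.05, 30 of the 34 genes (88.2%) fell, against 25.9% of all tested genes, and 1 (2.94%) rose, against 24.9% of all tested genes. The gene that rose was Edem3, a mannosidase-like ERAD factor, and the 3 genes without a call were Ern1 and Eif2ak3, which encode the sensors IRE1 and PERK, and Ppp1r15b, a phosphatase subunit. Log2 fold changes ran from -0.95 for Ppp1r15a to 0.13 for Edem3, with a median of -0.39, where all tested genes had a median of 0.00 and a 10th percentile of -0.37. Most changes were modest. Against a null of 1.2-fold in edgeR's glmTreat, 19 of the 34 (55.9%) were lower, against 7.38% of all tested genes. By glmTreat 0 of the 34 were higher, adjusted or unadjusted, against 5.49% of all tested genes (DESeq2 called 1 higher against no change).

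The groups did not overlap for most of the genes. For 31 of the 34 every stretched library lay below every static one, as for 29.4% of all tested genes, and for Edem3 every stretched library lay above, as for 29.0%. Together the 34 genes summed to a mean of 12356 CPM in stretched libraries and 16398 CPM in static ones, after TMM scaling. Replicates lay close together, with a median coefficient of variation of 2.18% under stretch and 3.02% in static cells (3.80% under stretch and 5.05% in static cells over all tested genes). Across all tested genes the log2 fold change was negatively related to GC content (Spearman's rho -0.29, across genes that share the same 6 libraries), and rho was -0.31 across the 34. With an offset for GC content and transcript length, the same 30 genes were lower, with a median log2 fold change of -0.35.

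**Figure D1:**
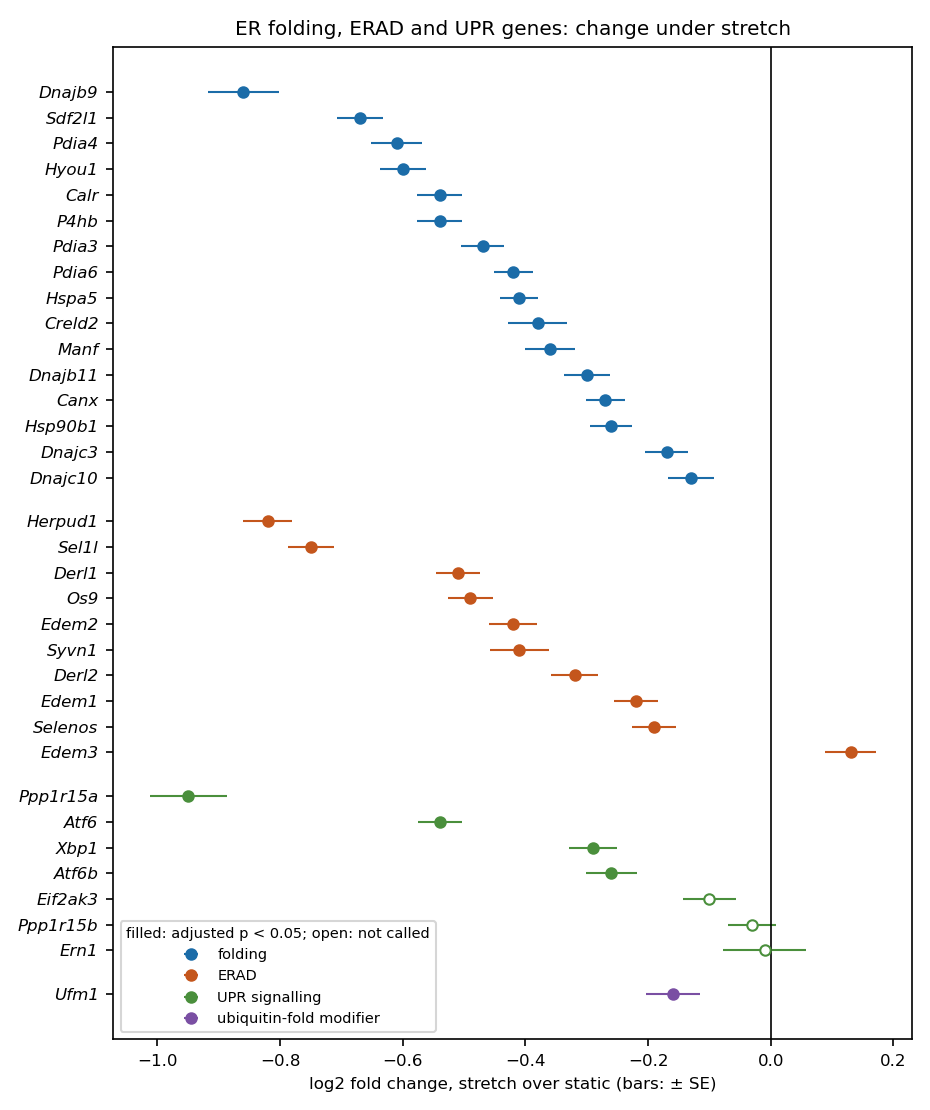
Log2 fold change (x axis, stretch over static) of the 34 genes, grouped by role, with bars for the standard error from edgeR over 3 stretched and 3 static libraries. Filled points passed an adjusted p under 0.05: 30 lie below 0 and Edem3 lies at 0.13, while Eif2ak3, Ppp1r15b and Ern1 (open points) lie near 0.

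The promoters of these genes were searched for the elements through which the UPR is known to act. The ER stress response element (ERSE) is CCAAT and CCACG with 9 bases between them, and binds the factor NF-Y at CCAAT and ATF6 or XBP1 at CCACG. ERSE-II is ATTGG and CCACG with 1 base between them. Windows of 300 bases, from 250 before to 50 after the start, came from RefSeq (GRCm38.p6) for 29 of the 34 genes and for 9892 tested genes. Windows of Hyou1, Manf, Derl1, Atf6 and Ppp1r15b were not used here. Genes with more than 1 window, such as Derl2, were counted once, with a match if any of their windows held it. An ERSE on either strand was found in 8 of the 29 genes (27.6%), against 20 of 9892 (0.202%), and an ERSE-II in 2 (6.90%), against 8 (0.0809%). So 8 of the 20 tested genes with an ERSE were among the ER genes described here, although these genes are on the list in part because they are well-studied UPR targets. Matches describe the letters and are not shown to be sites in use.

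The matches are printed on the strand that reads CCACG, with 6 bases on each side and the fixed letters in capitals, so that the spacing and the variable middle bases can be compared.
Hspa5 ERSE, chr2:34772019-34772049, + strand: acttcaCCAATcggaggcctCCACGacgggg
Hsp90b1 ERSE, chr10:86705632-86705662, - strand: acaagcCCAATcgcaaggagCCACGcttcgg
Hsp90b1 ERSE, chr10:86705527-86705557, + strand: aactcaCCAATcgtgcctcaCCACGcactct
Calr ERSE, chr8:84847069-84847099, + strand: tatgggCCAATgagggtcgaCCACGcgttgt
Canx ERSE, chr11:50325794-50325824, - strand: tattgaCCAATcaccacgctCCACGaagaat
Pdia6 ERSE, chr12:17266485-17266515, + strand: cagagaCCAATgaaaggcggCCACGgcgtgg
Dnajc3 ERSE, chr14:118937821-118937851, + strand: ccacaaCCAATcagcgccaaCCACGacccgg
Creld2 ERSE, chr15:88819514-88819544, - strand: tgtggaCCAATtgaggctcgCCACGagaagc
Syvn1 ERSE, chr19:6046526-6046556, + strand: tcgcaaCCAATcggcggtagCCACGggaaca
Herpud1 ERSE-II, chr8:94386371-94386393, + strand: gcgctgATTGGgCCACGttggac
Dnajb11 ERSE-II, chr16:22857846-22857868, + strand: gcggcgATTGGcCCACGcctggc

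Of the 14 windows of folding genes 7 held an ERSE, in Hspa5, Hsp90b1, Calr, Canx, Pdia6, Dnajc3 and Creld2. Hsp90b1 held 2. Of the 9 ERAD genes with a window 1 held an ERSE (Syvn1, 44 to 26 bases before the start). None was found in the 5 windows of UPR signalling genes (Xbp1, Ern1, Atf6b, Eif2ak3 and Ppp1r15a). The 2 ERSE-II matches were those of Herpud1 and Dnajb11, that of Dnajb11 at positions 7 to 17 after the start. In the 250 bases before the start alone, 1 of the 29 genes held an ERSE-II (3.45%, against 0.0607% of the 9892). The Herpud1 window also held the ATF4 element searched for, TGATGNAA, on the opposite strand, found in 1 of 29 genes (3.45%) and 2.65% of the 9892. The UPR element TGACGTGG was in 0 of the 29 genes and in 1.08% of all. The core CCACG alone, which lies within ERSE and ERSE-II and, reversed, within the UPR element, was in 24 of the 29 genes (82.8%) and 52.6% of all.

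Whole windows are shown for Hspa5, the most studied UPR target, and for Herpud1, which holds an ERSE-II and an ATF4 element, with both kinds of match in capitals.
Hspa5 promoter window, chr2:34771840-34772139, + strand: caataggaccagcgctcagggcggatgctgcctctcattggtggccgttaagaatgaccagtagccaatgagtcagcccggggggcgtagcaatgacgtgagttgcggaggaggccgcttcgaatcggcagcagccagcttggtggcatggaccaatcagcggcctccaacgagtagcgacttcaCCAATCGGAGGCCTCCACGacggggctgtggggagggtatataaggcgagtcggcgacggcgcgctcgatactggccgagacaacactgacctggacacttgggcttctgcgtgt
Herpud1 promoter window, chr8:94386179-94386478, + strand: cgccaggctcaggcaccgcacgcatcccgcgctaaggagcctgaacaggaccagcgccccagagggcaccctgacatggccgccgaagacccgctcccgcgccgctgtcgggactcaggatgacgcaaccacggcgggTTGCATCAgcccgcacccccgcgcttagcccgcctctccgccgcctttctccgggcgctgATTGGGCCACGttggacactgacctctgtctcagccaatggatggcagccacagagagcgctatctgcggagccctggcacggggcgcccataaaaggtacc

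The 10 ER genes with an ERSE or ERSE-II all fell, and their median log2 fold change was -0.39. Of the 19 genes whose window held neither, 16 fell and 1 rose (median -0.32). Of the other 12 tested genes with an ERSE 3 were lower and 3 higher (median 0.10), shares close to the 25.9% and 24.9% of all tested genes. Lower among them were Ero1b, an ER oxidase (-0.68), Alg12, a mannosyltransferase of N-glycan assembly (-0.65), and Adcy3, an adenylate cyclase (-0.30). Higher were Pan2, a deadenylase subunit (0.51), Hnrnpa3, an RNA-binding protein (0.34), and Xlr3a (0.27), whose near-identical copies Xlr3b and Xlr3c hold the match too and may share its reads. Among the lower ones, the span of Alg12 ends at 88819318 on chromosome 15, beside Creld2. Both genes may hold the same match, the one printed for Creld2 at 88819514 to 88819544. Of the other 6 tested genes with an ERSE-II 3 were lower and 1 higher (median -0.12). Krtcap2, an oligosaccharyltransferase subunit (-0.62), Nucb1, a calcium-binding protein (-0.52), and Rcl1 (-0.16) were lower, and Rbm39, a splicing factor (0.36), was higher.

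**Figure D2:**
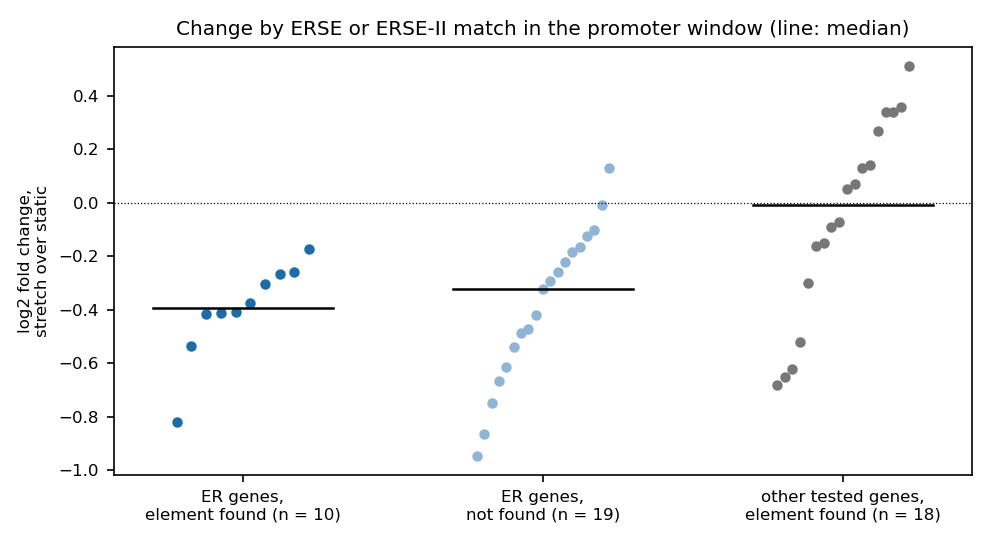
Log2 fold change (y axis, stretch over static) of the ER genes with an ERSE or ERSE-II in the RefSeq promoter window (10), of those without (19) and of other tested genes with either element (18), 1 point a gene, with a line at the median. The medians of the ER genes lie at -0.39 and -0.32, and the other genes with an element lie on both sides of 0.

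All 16 genes of the folding machinery, 9 chaperones and co-chaperones and 7 lectin chaperones and disulfide isomerases, fell, against 25.9% of all tested genes. Their summed level was 10342, 10496 and 10319 CPM in stretched libraries 1, 2 and 3 and 13984, 13848 and 13722 CPM in the static ones. The lowest static sum thus lay above the highest stretched sum, and the mean was 1.33-fold lower under stretch. Folding genes made up most of the RNA of the whole group in both conditions.

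Hspa5 (Entrez Gene 14828, chromosome 2, 34772090 to 34776529 in GRCm38) encodes BiP, the ER's Hsp70 chaperone, which also holds the UPR sensors inactive. Its level was 1332, 1344 and 1333 CPM in stretched cells and 1768, 1781 and 1772 CPM in static cells. The 6 values formed 2 tight groups, with standard deviations of 6.83 CPM under stretch and 6.57 CPM in static cells (n = 3 each). The log2 fold change was -0.41 (SE 0.031, edgeR adjusted p = 8.68e-08). Hsp90b1, the Hsp90 of the ER (GRP94), had 2131, 2142 and 2099.7 CPM under stretch against 2545, 2466 and 2617 CPM in static cells. Its log2 fold change of -0.26 did not pass against 1.2-fold (glmTreat adjusted p = 0.850). Hyou1, the exchange factor that frees nucleotide from BiP, averaged 421 ± 8.62 CPM under stretch and 640.2 ± 26.4 CPM in static cells (SD, n = 3 each), a 1.52-fold loss.

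The 34 genes include 4 of J-domain proteins that work with BiP. Of these, Dnajb9, Dnajb11 and Dnajc3 fell with log2 fold changes of -0.86, -0.30 and -0.17, and Dnajc10 is given with the disulfide isomerases. Dnajb9 (ERdj4), which loads BiP onto IRE1 and onto ERAD substrates, had 20.9, 24.4 and 21.5 CPM in stretched cells against 40.8, 39.6 and 40.3 CPM in static cells. Its 1.82-fold loss (log2 fold change -0.86, SE 0.058, edgeR adjusted p = 2.32e-08) was the largest among the folding genes. Dnajb11 (ERdj3), which hands nascent chains to BiP, averaged 195 ± 4.30 CPM under stretch and 241 ± 7.60 CPM in static cells. Dnajc3 (p58IPK), another BiP partner, averaged 189.9 ± 5.34 CPM under stretch and 214 ± 2.17 CPM in static cells. Sdf2l1, which forms a complex with ERdj3, fell 1.59-fold, to 102, 103 and 100.1 CPM in stretched cells against 165, 156 and 163 CPM in static cells. Thus Sdf2l1 and its partner Dnajb11 had log2 fold changes of -0.67 and -0.30.

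Manf and Creld2 are small ER-resident proteins that cells also secrete and that ER stress induces. Manf averaged 188 ± 6.80 CPM under stretch and 241 ± 8.62 CPM in static cells, and Creld2 averaged 102 ± 1.46 CPM under stretch and 132 ± 10.2 CPM in static cells. Static library 2 had the lowest of the static values of Creld2, at 120.4 CPM, still above the highest stretched value of 103 CPM.

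Among the lectin chaperones, Calr (calreticulin, soluble) and Canx (calnexin, in the membrane) fell, with log2 fold changes of -0.54 and -0.27. Calr had 1398, 1431 and 1439 CPM in stretched cells against 2131, 2101 and 1961 CPM in static cells. Canx had 1168, 1158 and 1148 CPM in stretched cells against 1403, 1388 and 1392 CPM in static cells. Both genes were separated between groups, but Canx did not pass against 1.2-fold (glmTreat adjusted p = 0.703) and Calr did (glmTreat adjusted p = 9.55e-06). The GC and length offset gave log2 fold changes of -0.51 for Calr and -0.34 for Canx. The difference between Calr and Canx was not tested. Pdia3 (ERp57), the oxidoreductase that works with these lectins, fell 1.39-fold.

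The other disulfide isomerases also fell. P4hb, the gene of PDI itself, had 987, 992 and 996 CPM in stretched cells against 1430.2, 1512 and 1381 CPM in static cells. Pdia4 (ERp72) averaged 556 ± 29.4 CPM under stretch and 852 ± 32.8 CPM in static cells, a 1.53-fold loss, and Pdia6 (P5) averaged 602 ± 3.30 CPM under stretch and 804 ± 12.3 CPM in static cells. Dnajc10 (ERdj5), a reductase that opens disulfides before degradation, had the smallest change of the folding genes, with a log2 fold change of -0.13 (SE 0.038, edgeR adjusted p = 0.012). Its call was lost without stretched library 1 (-0.11, edgeR adjusted p = 0.0720) and with scaling by library size only (-0.06, edgeR adjusted p = 0.134).

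**Figure D3:**
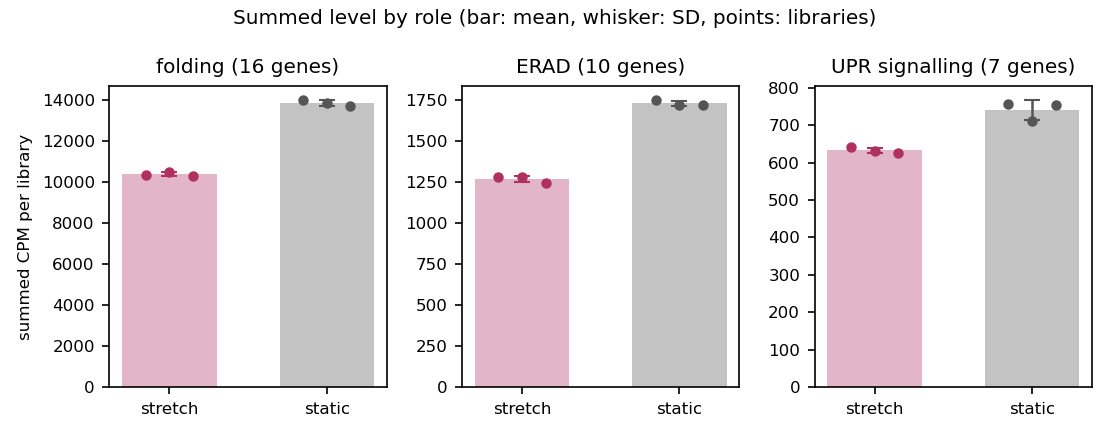
Summed level (y axis, TMM-scaled CPM, starting at 0) of the folding, ERAD and UPR signalling genes in each of 3 stretched and 3 static libraries (points), with the mean (bar) and SD (whisker). In all 3 panels every stretched library lies below every static one, and the means differ 1.33-fold, 1.36-fold and 1.17-fold.

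Of the 10 ERAD genes 9 fell (90.0%) and 1 rose (10.0%), against 25.9% and 24.9% of all tested genes. Their summed level was 1281, 1279 and 1246 CPM in stretched libraries against 1748, 1718 and 1720.2 CPM in static ones, 1.36-fold lower under stretch. The median log2 fold change of -0.42 was close to the -0.41 of the folding genes, and the difference between the roles was not tested.

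The components of the Hrd1 complex fell. Herpud1 (Entrez Gene 64209, chromosome 8, 94386429 to 94395371 in GRCm38), a membrane scaffold of the complex that ER stress strongly induces, had 103, 105 and 99.1 CPM in stretched cells. In static cells it had 184, 172 and 185 CPM. The log2 fold change of -0.82 (SE 0.040, edgeR adjusted p = 9.74e-10) ranked 229 from the lowest among the 12377 tested genes. Sel1l (Entrez Gene 20338, chromosome 12, 91806043 to 91849157), the adaptor that stabilises Hrd1, had 173, 172 and 163 CPM in stretched cells against 286, 278 and 289 CPM in static cells. The ubiquitin ligase itself, Syvn1 (Hrd1), fell 1.33-fold, to 75.4, 75.3 and 72.2 CPM against 104, 91.1 and 101 CPM in static cells. Its span shares 89 bases with Mrpl49, which had a log2 fold change of 0.18. Thus the adaptor and the scaffold had fold changes of 1.68 and 1.76, against 1.33 for the ligase.

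Derl1 and Derl2, membrane proteins of the retrotranslocation channel, averaged 228 ± 4.13 and 63.9 ± 1.38 CPM under stretch and 325 ± 9.83 and 80.1 ± 2.42 CPM in static cells. Within each library the log2 ratio of Derl1 to Derl2 averaged 1.83 ± 0.04 under stretch and 2.02 ± 0.01 in static cells. The span of Derl2 shares 274 bases with Mis12, which averaged 68.5 CPM under stretch and 71.3 CPM in static cells. Any part of shared reads in the ratio was not tested. With the GC and length offset the log2 fold changes were -0.49 for Derl1 and -0.39 for Derl2, against -0.51 and -0.32 without it. Selenos (VIMP), a selenoprotein that links Derlins to the p97 ATPase, fell 1.14-fold. Os9, a lectin that delivers trimmed glycoproteins to the Hrd1 complex, had 166, 169 and 161 CPM in stretched cells against 237, 233 and 224 CPM in static cells.

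The EDEM family, which trims mannose from glycoproteins that fail to fold, was split. Edem2, which starts the trimming, had 61.8, 59.6 and 60.4 CPM in stretched cells against 80.9, 84.0 and 79.3 CPM in static cells, a 1.34-fold loss. Edem1 fell 1.17-fold, and its groups did not overlap. Edem3 (Entrez Gene 66967, chromosome 1, 151755344 to 151822328) had 96.5, 98.4 and 89.6 CPM in stretched cells against 85.8, 87.4 and 87.3 CPM in static cells. It rose, with a log2 fold change of 0.13 (SE 0.041, edgeR adjusted p = 0.0162). That call was lost with the GC and length offset (0.04, edgeR adjusted p = 0.442). Leaving out a library also ended it for stretched library 1 (0.12, edgeR adjusted p = 0.0789), stretched library 2 (0.10, edgeR adjusted p = 0.0925) and static library 1 (0.12, edgeR adjusted p = 0.0680). Within each library the log2 ratio of Edem2 to Edem3 was -0.64, -0.72 and -0.57 under stretch and -0.09, -0.06 and -0.14 in static cells. The difference of -0.55 does not depend on scaling between libraries, but it carries no GC and length offset. With that offset the log2 fold change was -0.35 for Edem2 and 0.04 for Edem3.

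**Figure D4:**
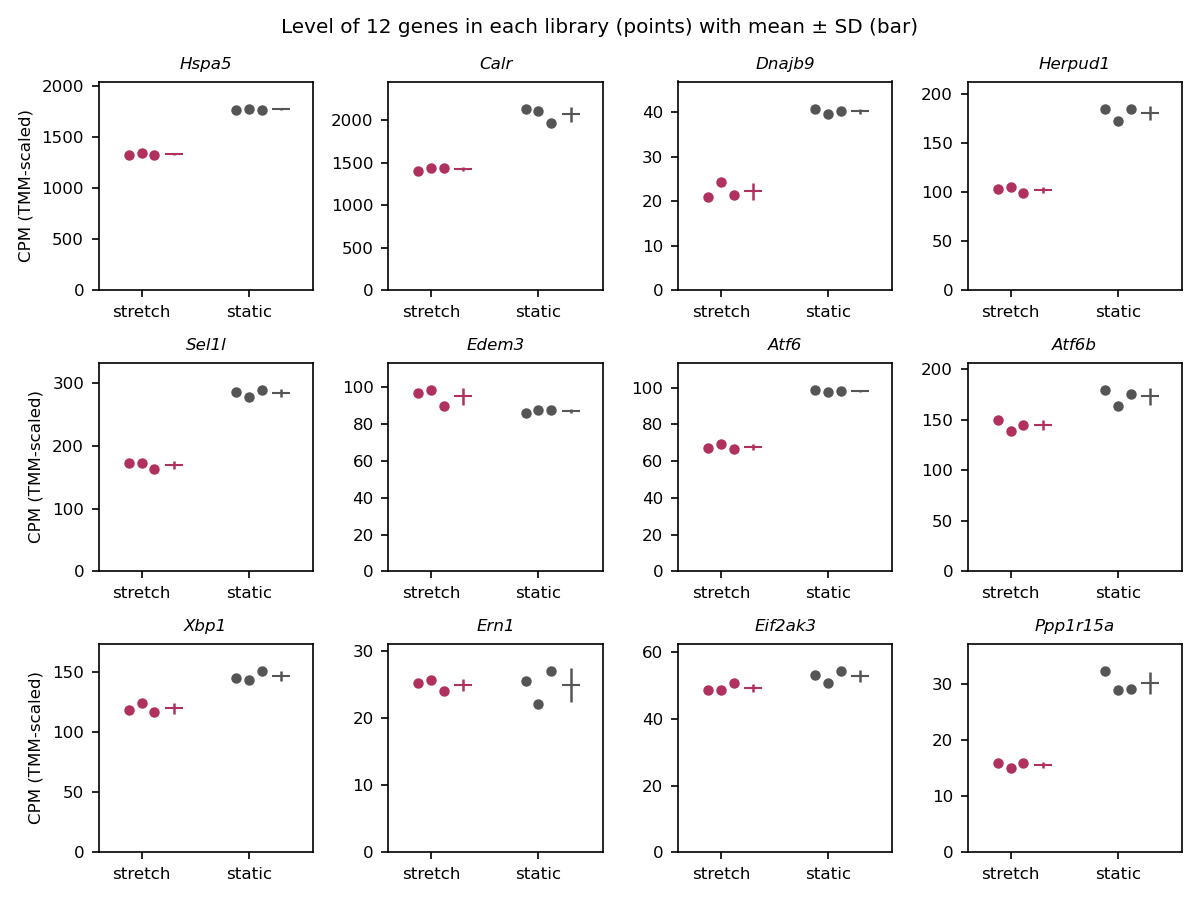
Level (y axis, TMM-scaled CPM, starting at 0) of 12 of the genes in each stretched and static library (points), with the mean and SD of 3 libraries beside them. Hspa5, Calr, Dnajb9, Herpud1, Sel1l, Atf6 and Ppp1r15a are separated widely, Ern1 overlaps, Eif2ak3 nearly touches, and Edem3 lies slightly higher under stretch.

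Of the 7 genes of UPR signalling 4 fell (57.1%, against 25.9% of all tested genes) and 3 were not called. Their median log2 fold change was -0.26. edgeR called 0 of them higher, against 24.9% of all tested genes. The count was 0 also at an unadjusted p under 0.05 and with DESeq2. Their summed level was 640.2, 631 and 626 CPM in stretched libraries against 757, 711 and 753 CPM in static ones, 1.17-fold lower under stretch.

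In the ATF6 branch, Atf6 (Entrez Gene 226641, chromosome 1, 170704457 to 170868585), the membrane-bound factor that is cut free under stress, had 67.1, 69.4 and 66.8 CPM in stretched cells. In static cells it had 98.9, 97.9 and 98.1 CPM. It fell 1.45-fold (log2 fold change -0.54, SE 0.036, edgeR adjusted p = 2.49e-08). Its paralog Atf6b had 149.8, 139 and 145 CPM in stretched cells against 179.8, 164 and 176 CPM in static cells, with no overlap. The log2 fold change of Atf6b was -0.26, and -0.12 with the GC and length offset (edgeR adjusted p = 0.00974), while that of Atf6 was -0.61 with the offset. The log2 ratio of Atf6 to Atf6b was -1.10 ± 0.08 in stretched cells and -0.82 ± 0.06 in static cells.

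In the IRE1 branch, the sensor's own mRNA did not pass the test and that of its substrate did. Ern1 (Entrez Gene 78943, chromosome 11, 106397620 to 106487796), the gene of IRE1, had 25.2, 25.7 and 24.0 CPM in stretched cells against 25.5, 22.1 and 27.0 CPM in static cells. The groups overlapped, and the log2 fold change of -0.01 (edgeR adjusted p = 0.939) had a 95% interval of -0.19 to 0.18 on 4 degrees of freedom. The static libraries of Ern1 spread the most of any of the 34 genes, with a coefficient of variation of 10.1%. Xbp1, whose mRNA IRE1 splices, had 119, 125 and 117 CPM in stretched cells against 145, 143 and 151 CPM in static cells, a 1.22-fold loss (edgeR adjusted p = 2.21e-05) that did not pass against 1.2-fold (glmTreat adjusted p = 0.388). Spliced and unspliced Xbp1 are counted together here.

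In the PERK branch, Eif2ak3, the gene of the kinase, had 48.5, 48.6 and 50.69 CPM in stretched cells against 53.1, 50.71 and 54.4 CPM in static cells. The groups all but touched, and the log2 fold change of -0.10 missed the threshold after adjustment (edgeR adjusted p = 0.0602, unadjusted p = 0.0315). Its 95% interval of -0.22 to 0.02 was taken on 4 degrees of freedom and is wider than the unadjusted edgeR test implies. Without static library 2 Eif2ak3 passed (-0.13, edgeR adjusted p = 0.0186).

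The phosphatase subunits that reverse PERK's mark on eIF2alpha gave unlike values. Ppp1r15a (GADD34; Entrez Gene 17872, chromosome 7, 45522917 to 45526268), the stress-induced subunit, had 15.9, 15.0 and 15.8 CPM in stretched cells. In static cells it had 32.3, 28.8 and 29.0 CPM. This 1.93-fold loss was the largest of the 34 genes (log2 fold change -0.95, SE 0.063, edgeR adjusted p = 2.12e-08). Its span shares 730 bases with Tulp2, which was lower too (4.01 CPM under stretch and 5.69 CPM in static cells). Ppp1r15b (CReP), the constitutive subunit, had 215, 208 and 207 CPM in stretched cells against 222, 204 and 217 CPM in static cells, with overlapping groups (log2 fold change -0.03, edgeR adjusted p = 0.549). The log2 ratio of Ppp1r15a to Ppp1r15b was -3.76, -3.79 and -3.71 in stretched cells and -2.78, -2.82 and -2.91 in static cells.

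The ratios of 5 pairs of paralogs were compared, 4 of them given above and Edem1 to Edem3 the other (1.28 ± 0.04 under stretch and 1.63 ± 0.05 in static cells, on the log2 scale). The ratios carry no GC and length offset. In each pair the stretched and static values did not overlap. Each had a two-sided exact permutation p = 0.1, the smallest that 3 against 3 can give, and p = 0.1 after adjustment over the 5 pairs.

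The mRNAs of the 4 genes listed for the branch of ATF4 and CHOP all fell as well, against 25.9% of all tested genes. These 4 were chosen with earlier results of these data known. Atf4 and Ddit3 (CHOP) averaged 357 ± 4.53 and 39.6 ± 1.27 CPM in stretched cells and 599.8 ± 20.1 and 92.6 ± 7.44 CPM in static cells. Trib3, a pseudokinase, had a log2 fold change of -2.17 and Atf3, a transcription factor, of -0.99.

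Ufm1, a ubiquitin-like protein attached to ER-bound ribosomes and other ER proteins, had 69.5, 70.0 and 68.7 CPM in stretched cells against 75.1, 83.5 and 75.5 CPM in static cells. It fell 1.12-fold (log2 fold change -0.16, edgeR adjusted p = 0.00614). The call was lost with scaling by library size only (-0.10, edgeR adjusted p = 0.0508).

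The genes spanned a wide range of levels. Per kilobase of the longest annotated transcript, Calr (651 ± 10.1 under stretch and 945 ± 41.4 in static cells, CPM per kilobase) and Hsp90b1 (659 ± 6.87 under stretch and 789 ± 23.4 in static cells) stood highest. Under stretch these 2 did not differ beyond their spread, while in static cells Calr stood above Hsp90b1. P4hb (347 ± 1.61 under stretch and 504 ± 23.1 in static cells) and Hspa5 (364 ± 1.86 under stretch and 483 ± 1.79 in static cells) followed, and in static cells these did not differ beyond their spread. Ern1 was the lowest, at 3.59 in both groups, and Ppp1r15a (5.54 under stretch and 10.7 in static cells) was among the lowest. Across the 34 genes the fold change was only weakly related to the level (Spearman's rho -0.13, genes of the same 6 libraries). With log2 transcript length rho was 0.39 across the 34 and 0.07 across all tested genes.

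Other genes of the pathway were taken from 5 lists with 121 tested members, chosen with earlier results of these data known. Of the 121, 63 fell (52.1%) and 9 rose (7.44%), against 25.9% and 24.9% of all tested genes. Their median log2 fold change was -0.15. Among 40 other folding factors 22 fell and 4 rose. Ero1a, the oxidase that supplies disulfides and that low oxygen induces, had 137, 138 and 131 CPM in stretched cells against 287, 311 and 284 CPM in static cells, a 2.17-fold loss. Creld1 fell 1.56-fold and Prkcsh, a glucosidase II subunit, 1.41-fold. Uggt2, a relative of the glucosyltransferase that returns misfolded glycoproteins to the lectins, rose 1.65-fold, to 23.8, 20.0 and 21.3 CPM against 12.5, 10.9 and 15.7 CPM in static cells.

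Among 32 other ERAD factors 19 fell (59.4%) and 1 rose (3.1%), against 25.9% and 24.9% of all tested genes. H13, the signal peptide peptidase, fell 1.55-fold, Rhbdd1, a rhomboid protease of the ER, 1.56-fold and Herpud2, a relative of Herpud1, 1.37-fold. The gene that rose was Erlin1, a scaffold of ER membrane domains (log2 fold change 0.16, edgeR adjusted p = 0.0317, and 0.0893 by DESeq2). Its call was also lost with the GC and length offset, with thinned counts, with the replicate block (edgeR adjusted p = 0.0529) and without stretched library 1 or static library 1.

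Among 17 other UPR signalling genes 4 fell and 4 rose, each 23.5% (median log2 fold change -0.03), shares close to those of all tested genes. DESeq2 called 4 lower and 2 higher. glmTreat called 3 lower and 1 higher, where it called 7.38% of all tested genes lower and 5.49% higher. Tmbim6, an ER membrane protein that restrains cell death, fell 1.31-fold. Wfs1, an ER membrane protein that restrains ATF6, fell 1.53-fold, and Creb3, a membrane-bound factor related to ATF6, 1.29-fold. Yod1, a deubiquitinase that works with p97, rose 1.48-fold, to 18.8, 16.2 and 16.3 CPM against 11.4, 9.47 and 13.6 CPM in static cells. The others called higher by edgeR were the eIF2alpha kinase gene Eif2ak2 (log2 fold change 0.21), the protease gene Mbtps2 (0.14) and Eif2s1, the gene of eIF2alpha (0.09). The calls of Mbtps2 and Eif2s1 were lost with the GC and length offset (edgeR adjusted p = 0.660 and 0.950). They were also lost with DESeq2 (adjusted p = 0.0558 and 0.0641).

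Of 7 UFMylation enzymes 3 fell (42.9%, against 25.9% of all tested genes). They were Ddrgk1, the ER-membrane adaptor of the ligase (1.45-fold), Cdk5rap3, another ligase partner (1.21-fold), and Ufc1, the conjugating enzyme (1.16-fold). Of 25 genes of ER translocation and N-glycosylation 15 fell (14 by DESeq2), which is 60.0% against 25.9% of all tested genes in edgeR. The channel subunit Sec61a1 averaged 667 ± 13.4 CPM under stretch and 844 ± 13.7 CPM in static cells. Rpn1 and Rpn2, subunits of the oligosaccharyltransferase, both fell 1.27-fold. In these 2 lists edgeR called 0 genes higher, against 24.9% of all tested genes. The count was 0 also at an unadjusted p under 0.05 and with DESeq2.

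**Figure D5:**
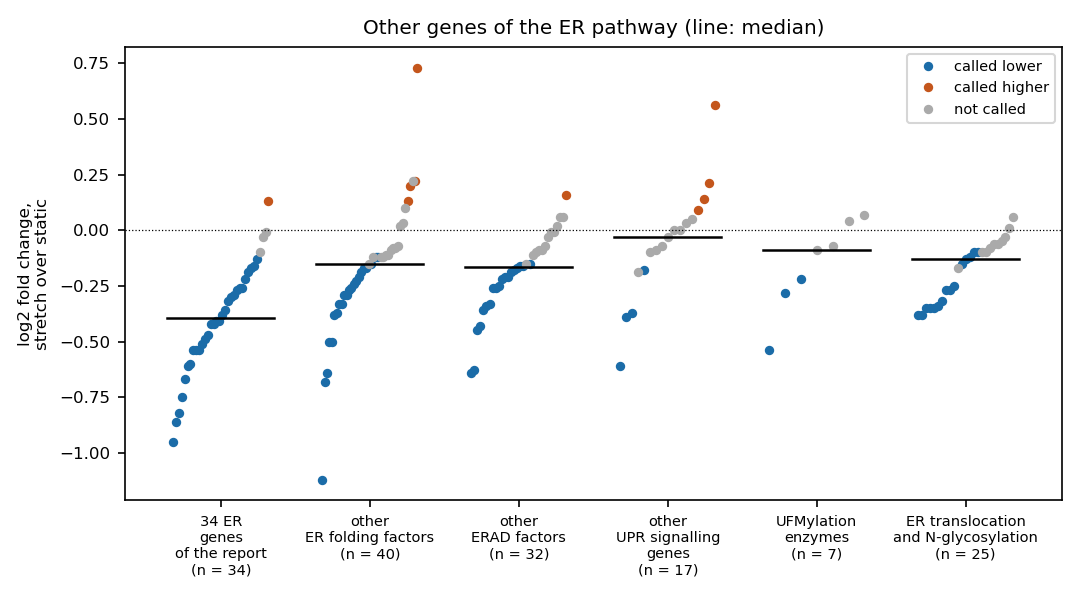
Log2 fold change (y axis, stretch over static) of the 34 genes of the report and of the 121 tested genes of 5 other lists of the ER pathway, 1 point a gene, coloured by its call in edgeR, with a line at the median. The 34 genes have a median of -0.39, the lists medians of -0.15, -0.16, -0.03, -0.09 and -0.13, and Uggt2 and Yod1 stand highest.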

How the data were processed

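RNA of 3 stretched and 3 static samples was grouped by the labels. The authors deposited estimated counts, unscaled whole numbers per gene. The submitters' processing notes name Salmon 1.4.0 together with mm10 and GRCm38 and give them no role. The index and the strand setting were not given in the sources used here, which leaves overlapping genes and near-identical paralogs uncertain.

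Symbols and positions came from RefSeq GRCm38.p6 (14875 of 14883 numbers matched). In edgeR 4.0.16 (R 4.3.3), filterByExpr (minimum count 10) kept 12377 genes, TMM factors were 0.966 to 1.02, and a two-sided quasi-likelihood model of the group alone (4 residual degrees of freedom) was fitted to the counts and adjusted by Benjamini-Hochberg over all tested genes. The common biological coefficient of variation was 3.60%. Standard errors were taken from the fold change and its F statistic. Length and GC content came from the longest GENCODE M21 transcript (12281 tested genes). The procedure was tested on simulated counts. A list of leukocyte markers is not reported here.

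From each of the 5 other lists the text names the 3 called genes of lowest p in the commoner direction (lower where the counts were equal) and 1 in the other, plus Atf4, Ddit3, Trib3 and Atf3. The remaining higher UPR signalling genes and other genes with an ERSE or ERSE-II were named after their values were seen. The members and lists were chosen with earlier results of these data known. Alternatives were RLE and library size scaling, no count filter, at least 5 CPM in 3 libraries, DESeq2 1.42.0, glmTreat, the replicate block, the GC and length offset (splines, 5 degrees of freedom), both together, thinning to the smallest library and leaving out each library. A search for elements with 1 mismatch was added after the data were seen.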

Additional observations from a re-analysis of the deposited data

How the results depend on the processing

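The count of 30 lower genes was the same 30 genes under RLE scaling, without a count filter, at 5 CPM in 3 libraries, with DESeq2, with the GC and length offset and after thinning. It was 28 with library size scaling, which lost Dnajc10 and Ufm1, and 29 to 31 when a library was left out. Against 1.2-fold (glmTreat) 19 of the 34 were lower and 0 higher, and 2 of the UPR signalling genes were lower. Of the 121 other pathway genes 22 were lower and 2 higher. Over all tested genes 1592 were called, with 7.38% of tested genes lower and 5.49% higher. The 1 higher gene, Edem3, became 0 with the GC and length offset, alone or with the replicate block, and 0 to 1 when a library was left out. With either offset fit 4 of the other pathway genes were higher. The median log2 fold change of the 34 was -0.3487 with the offset, -0.3494 with offset and block and -0.3316 with library size scaling. Ern1 changed sign at 0.0528 with library size scaling, 0.0004 with the offset and 0.0057 with offset and block, and ran from -0.0752 to 0.0556 when a library was left out. Ppp1r15b changed sign with library size scaling (0.0308). With 1 mismatch allowed an ERSE-II was found in 27.6% of the 29 genes with a window (2.14% of all 9892) and an ERSE in 44.8% (2.51% of all). The cause of these differences was not tested.

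The groups share replicate numbers. Deviations of samples of the same number had correlations of -0.003, 0.016 and -0.067, and those of unlike numbers ran from -0.08 to 0.093. With 3 samples a group these values cannot tell whether the numbers pair the samples, and the labels do not say. With the replicate block 5967 genes were called and the same 30 of the 34 were lower. Scaling by library size called 2401 genes lower and 4117 higher over all tested genes, against 3211 and 3087 with TMM, and moved the median of all genes by 0.06. The depth of 19469286 to 36351400 counts left each of the 34 genes with counts in every library.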
